A study of Mus musculus with 4 samples.

Results

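The nuclear genes of the mitochondrial respiratory chain were examined in HT-22, an immortalised mouse hippocampal line, with and without overexpression of Nsmce1. They were chosen by their symbols. The rule took the Nduf genes of the a, b, c, s and v series, Sdha to Sdhd, the Uqcr genes, the Cox4 to Cox8 genes and the Atp5 genes, and left out pseudogenes. It found 81 of the 25050 genes in the table, and 78 of these were tested because they averaged at least 10 normalised reads over the 4 libraries. Atp5sl matches the rule by its symbol but encodes an assembly-related protein and not a subunit, so it enters the counts over all members and no complex.

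The study compared RNA of 2 libraries from wild type HT-22 cells with RNA of 2 libraries from HT-22 cells that overexpress Nsmce1, which encodes a RING protein of the SMC5/6 complex that maintains chromosomes. All 4 carry the label of passages 21 to 24. The series' description also speaks of an inducible Nsmce1 with uninduced cells as controls. The sources used here do not say whether the wild type libraries hold that construct, which agent induced it or whether the lines are clones. No label says that replicates were grown as separate cultures. The p-values therefore describe the spread of these 4 libraries, which may be technical. Nsmce1 and whatever else distinguishes the cell populations cannot be told apart. The whole reads behind the table came to between 25787452 and 44602989 a library, and genes of the mitochondrial chromosome took 5.08% to 5.29% of them. Nsmce1 stood at 1108 and 1206 normalised reads in wild type, against 17851 and 16525 in the cells labelled overexpressing (log2 fold change 3.89, limma adjusted p = 9.06e-05). The label of a hippocampal neuron was set against markers. Of 17 neuronal markers listed, 10 were among the genes with values, and 5 of these passed the filter, Tubb3, Syp, Syn1, Dlg4 and Camk2a. The list summed to 3579 to 4330 normalised reads. All 10 fibroblast and mesenchymal markers had values and 9 passed. Their sum was 394661 to 483694 in the same libraries, ranges that overlap between the groups. Astrocyte markers, of which Aldh1l1 and Slc1a3 passed the filter, summed to 3021 to 3368 in wild type and to 4264 to 4560 with overexpression, although the log2 fold changes of these 2 genes lay on opposite sides of 0, at -2.14 and 0.49. Microglial markers, of which Aif1 and Tmem119 passed, summed to 1900 to 2243 and to 1542 to 1655. The oligodendrocyte, endothelial and muscle lists summed to at most 91, 69.5 and 547 normalised reads in a library. The part of cell identity in the results below was not tested.

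The respiratory chain sits in the inner mitochondrial membrane. Complex I takes electrons from NADH and complex II from succinate, both pass them through ubiquinone to complex III, and cytochrome c carries them on to complex IV, which reduces oxygen. Complexes I, III and IV pump protons, and ATP synthase, called complex V, uses their return to make ATP. Complex II is encoded wholly in the nucleus, while the other complexes join nuclear subunits with a few made from mitochondrial DNA. Neurons depend heavily on this pathway for ATP, whereas cultured lines in glucose-rich medium can also draw on glycolysis.

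Nsmce1 overexpression left no member past the threshold. Among the 78 tested members 0 had a limma adjusted p under 0.05, whereas 30 of 15540 genes did (0.193%), and voom on the recovered reads also called 0 members, against 20 genes in all (0.129%). The smallest adjusted p of a member was 0.331, for Atp5j2. At an unadjusted limma p under 0.05 there were 6 members, 7.69% of those tested, against 7.92% of all genes. Of the 6, Atp5j2, Ndufa5, Cox5b, Uqcrq and Ndufb8 were lower in the overexpressing libraries and Ndufb4 was higher, which makes 6.41% of members lower, against 3.60% of all genes, and 1.28% higher, against 4.32%. The total share was near the background, and the split by direction rests on 6 genes.

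Most members were measured closely enough to bound the difference between these libraries, whose replicates may be technical. For 67 of 78 the limma 95% confidence interval of the log2 fold change lay within 0.5 of zero on either side, which is a 1.41-fold difference, and for 77 it lay within 1. The exception was Cox6a2, with an interval from -1.72 to 1.70. Of all 15540 tested genes, 8215 had intervals within 0.5 and 11965 within 1. The log2 fold change itself was under 0.1 in size in 48 members, and in 6595 of all tested genes. The median over the members was -0.05, with quartiles of -0.11 and 0.02, and 50 members were below 0 and 28 above. Over all tested genes the median was 0.01 and 48.7% were below 0. In bulk RNA such as this, fewer cells of a type and less RNA per cell cannot be told apart.

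**Figure D1:**
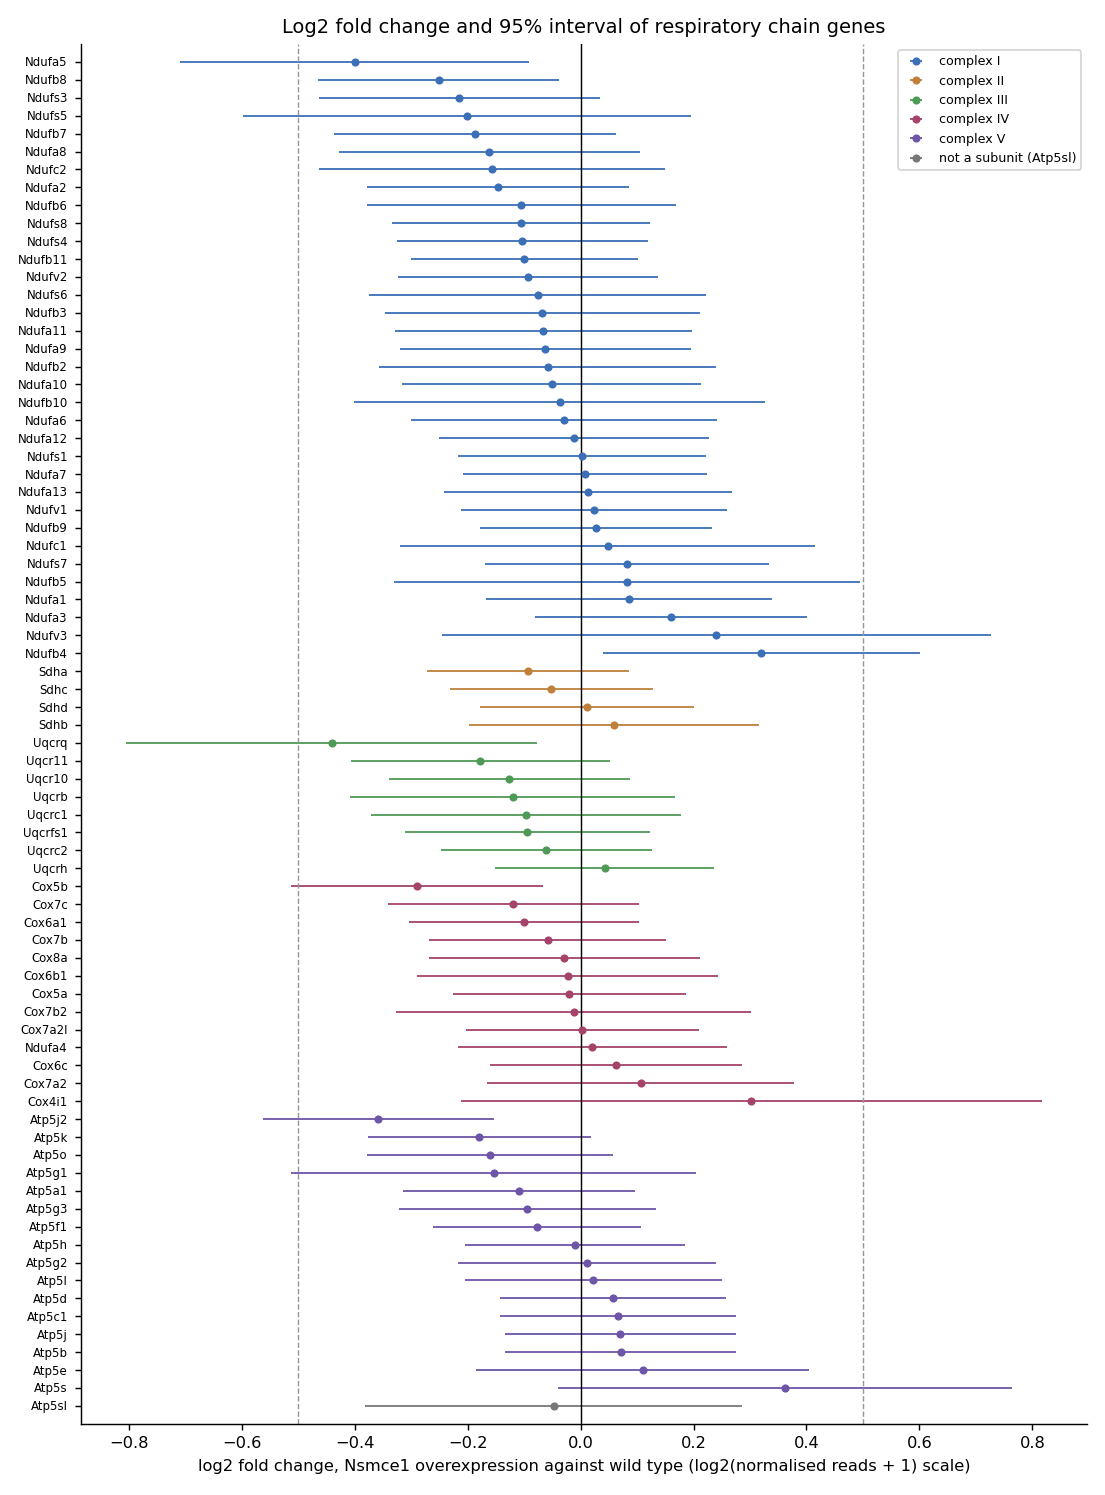
Log2 fold change of tested members between Nsmce1 overexpression and wild type (points) with its 95% confidence interval from limma (lines), ordered within complexes I to V. Cox6a2 is left out because its interval runs from -1.72 to 1.70. The dashed lines mark 0.5 on either side of 0, and the intervals of Ndufa5, Ndufb8, Uqcrq, Cox5b, Atp5j2 and Ndufb4 do not reach 0 before adjustment.

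Complex I held 35 tested members, 23 below 0 and 12 above, with a median log2 fold change of -0.06, which was -0.01 without wild type replicate 2 and -0.09 without wild type replicate 1. The 7 core subunits, which carry the flavin, the iron-sulfur clusters and the quinone site, had a median of -0.06, as did the 28 accessory subunits that surround them. Ndufs1, which holds several of the clusters, stood at 4614 and 5098 normalised reads in wild type, against 4642 and 5084 with overexpression, a log2 fold change of 0.00 (SE 0.0901, n = 2 a group). Ndufv1, which binds NADH, stood at 2072 and 2361 against 2299 and 2199, a log2 fold change of 0.02. Both sets of libraries overlap for these core genes. Ndufs3 had the smallest p among core genes, with 1046 and 1164 normalised reads in wild type, against 939 and 962 with overexpression (log2 fold change -0.22, limma adjusted p = 0.673).

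The 3 complex I genes with the smallest p were all accessory subunits. Ndufa5 (ENSMUSG00000023089, chromosome 6), a subunit of the matrix arm, stood at 1500 and 1651 normalised reads in wild type, against 1322 and 1077 with overexpression. Both overexpressing values were below both wild type values, by 23.9% on the means (log2 fold change -0.40, SE 0.127, interval -0.71 to -0.09, limma adjusted p = 0.509). Without overexpression replicate 2 its log2 fold change was -0.25. Ndufb8 (ENSMUSG00000025204, chromosome 19), a membrane arm subunit often used as a protein marker of assembled complex I, stood at 2546 and 2808 against 2216 and 2277. Its groups did not overlap either (log2 fold change -0.25, limma adjusted p = 0.549). Ndufb4 (ENSMUSG00000022820, chromosome 16), another membrane arm subunit, went the other way, with 597 and 678 normalised reads in wild type, against 815 and 775 with overexpression (log2 fold change 0.32, SE 0.115, limma adjusted p = 0.562). With the median log2 fold change of chromosome 16, 0.17 over 448 genes, taken off, the value for Ndufb4 was 0.15.

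The other accessory subunits lay nearer to 0. Ndufs4, which is phosphorylated and is a frequent site of mutation in Leigh syndrome, stood at 1543 and 1684 against 1492 and 1510 (log2 fold change -0.10). Ndufa9, which stabilises the junction of the arms, stood at 2009 and 2364 against 2033 and 2142 (-0.06). Ndufa13, also known as GRIM-19, stood at 1517 and 1760 against 1687 and 1613 (0.01). Ndufa3, a small membrane subunit, was higher in both overexpressing libraries, at 998 and 983 against 854 and 920 (0.16, limma adjusted p = 0.731). Of the 28 accessory subunits 6 were lower and 2 higher with no overlap between groups (21.4% and 7.14%, against 18.3% and 20.8% of all tested genes), and 20 overlapped.

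The promoters of Ndufb4 and Ndufa5, the complex I members with the highest and the lowest log2 fold change before chromosome medians were removed, are shown with that of Atp5j2, the member with the smallest p of all. Each is the 250 bases before the transcription start in RefSeq's annotation of GRCm38.p6, 5′ to 3′ on the gene's own strand, and the positions do not apply to mm9, the build named in the submitters' processing notes. Capitals mark 2 motifs searched on both strands. GCGCA, any base and then GCGC is the motif of NRF1 (nuclear respiratory factor), a known activator of respiratory genes, and AAGGTCA is that of the ERR receptors.
Ndufb4, chr16:37654369-37654618, minus strand: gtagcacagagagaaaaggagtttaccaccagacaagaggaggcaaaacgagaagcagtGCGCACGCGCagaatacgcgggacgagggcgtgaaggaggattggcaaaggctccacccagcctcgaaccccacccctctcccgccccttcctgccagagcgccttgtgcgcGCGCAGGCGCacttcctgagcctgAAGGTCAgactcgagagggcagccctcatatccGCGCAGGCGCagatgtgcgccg
Ndufa5, chr6:24527691-24527940, minus strand: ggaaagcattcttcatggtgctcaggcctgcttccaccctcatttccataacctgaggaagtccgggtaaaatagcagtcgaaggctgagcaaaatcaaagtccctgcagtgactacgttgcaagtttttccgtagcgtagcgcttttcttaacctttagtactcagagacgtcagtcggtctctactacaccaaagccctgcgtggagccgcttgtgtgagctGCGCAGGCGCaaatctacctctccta
Atp5j2, chr5:145191542-145191791, minus strand: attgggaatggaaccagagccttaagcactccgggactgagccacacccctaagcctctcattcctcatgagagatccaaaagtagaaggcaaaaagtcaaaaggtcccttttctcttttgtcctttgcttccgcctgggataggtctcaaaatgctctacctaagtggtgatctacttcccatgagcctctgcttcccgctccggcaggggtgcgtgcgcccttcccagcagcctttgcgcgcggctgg
The stretch of Ndufb4 holds 3 NRF1 matches and 1 ERR match, that of Ndufa5 holds 1 NRF1 match, and that of Atp5j2 holds none of these letters. Ndufa5 has another start in the same annotation. Its stretch, chr6:24527527-24527776, is not shown and holds the same NRF1 match. A match is a description of the sequence and not a bound site.

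Over all members, 64 of 81 matched a RefSeq promoter window, giving 69 windows of 300 bases, from 250 before to 50 after the start. NRF1 matches stood in 18 of them (26.1%), against 4.6% of 32851 windows over all genes. The ETS motif CCGGAAG, read by the factor GABP, stood in 16 (23.2% against 8.86%). AAGATGGC, the motif of YY1, stood in 9 (13.0% against 2.75%), and AAGGTCA in 8 (11.6% against 4.72%). The window of Atp5j2 holds 1 YY1 match, which lies outside the stretch shown above. GGGCGG, the motif of Sp factors, stood in 37.7% against 35.7% and CCAAT in 42.0% against 37.4%. These counts allow both strands. Only 1 window held both an ETS and a YY1 match, and they did not overlap. In 31 windows none of the NRF1, ETS, YY1 and ERR letters was found. The genes of 4 of these factors had log2 fold changes between -0.15 and 0.09. The groups did not overlap for Nrf1, which was lower, or for Gabpa and Yy1, which were higher, and overlapped for Esrra. Of all tested genes, 18.3% were lower and 20.8% higher without overlap. Nrf1 had 801 and 767 normalised reads in wild type, against 670 and 744 with overexpression (log2 fold change -0.15, limma adjusted p = 0.769). Log2 fold changes were 0.04 for Gabpa, 0.09 for Yy1 and -0.09 for Esrra, and 0 of these genes passed the test.

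Complex II, succinate dehydrogenase, is shared with the tricarboxylic acid cycle, and its 4 genes lay close together. Sdha, the flavoprotein that oxidises succinate, stood at 7697 and 8198 normalised reads in wild type, against 7403 and 7494 with overexpression (log2 fold change -0.09). Sdhb, the iron-sulfur subunit, stood at 2339 and 2788 against 2658 and 2661 (log2 fold change 0.06). The membrane anchors were Sdhc, with 3759 and 3787 against 3602 and 3680 (log2 fold change -0.05), and Sdhd, with 3297 and 3505 against 3412 and 3441 (log2 fold change 0.01). Sdha and Sdhc were lower in both overexpressing libraries than in both wild type libraries, while Sdhb and Sdhd overlapped. Of all tested genes, 18.3% were lower without overlap. The intervals of all 4 lay between -0.27 and 0.32, and their smallest limma adjusted p was 0.786. The median of the 4 was -0.02, and 0.00 without wild type replicate 2.

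Complex III, which passes electrons from ubiquinol to cytochrome c, had 7 of its 8 members below 0 and a median log2 fold change of -0.11. Uqcrq (ENSMUSG00000044894, chromosome 11), a small subunit in contact with cytochrome b, had the most negative log2 fold change of all tested members, with 2261 and 2603 normalised reads in wild type, against 1560 and 2048 with overexpression. Both overexpressing values were the lower ones, though they differed from each other more than the wild type values did (log2 fold change -0.44, SE 0.149, interval -0.80 to -0.08, limma adjusted p = 0.548). Without overexpression replicate 1 its log2 fold change was -0.24. Uqcr11, another small subunit, stood at 1674 and 1770 against 1453 and 1594 (log2 fold change -0.18, limma adjusted p = 0.710), and Uqcr10 at 2548 and 2786 against 2383 and 2501 (log2 fold change -0.13, limma adjusted p = 0.758). Uqcrfs1, the Rieske iron-sulfur protein, had a log2 fold change of -0.09, and the core proteins Uqcrc1 and Uqcrc2 had -0.10 and -0.06. Uqcrh, the hinge protein near the cytochrome c site, was the member above 0, at 0.04. The median of the complex was -0.20 without wild type replicate 1 and -0.04 without wild type replicate 2.

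Complex IV, cytochrome c oxidase, had 14 tested members, 9 below 0 and 5 above, and a median log2 fold change of -0.02. That median was 0.01 without wild type replicate 2, 0.04 without overexpression replicate 1 and -0.09 without wild type replicate 1, so its sign depends on the library left out. Cox5b (ENSMUSG00000061518, chromosome 1), a zinc-binding subunit on the matrix side, stood at 3161 and 3318 normalised reads in wild type, against 2499 and 2811 with overexpression. Its groups did not overlap (log2 fold change -0.29, SE 0.0916, interval -0.51 to -0.07, limma adjusted p = 0.509). Cox5a, which binds on the same side, stood at 3054 and 3209 against 2960 and 3221 (log2 fold change -0.02), and its groups overlapped. Cox6c stood at 4333 and 4975 against 4912 and 4793 (0.06) and Cox7b at 3662 and 3831 against 3421 and 3783 (-0.06), both overlapping. Cox7c, a small membrane subunit, stood at 2097 and 2253 against 1919 and 2088 (log2 fold change -0.12, limma adjusted p = 0.779).

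Cox4i1, the common form of the subunit through which ATP regulates the enzyme, was the member whose wild type libraries differed most in absolute reads among the complex IV genes. It stood at 11395 normalised reads in wild type replicate 1 and at 7038 in replicate 2, and at 11323 and 10768 in the overexpressing libraries. Wild type replicate 1 was above both overexpressing libraries and replicate 2 far below them. The log2 fold change was 0.30 (SE 0.211, interval -0.21 to 0.82, limma adjusted p = 0.760), 0.65 without wild type replicate 1 and -0.05 without wild type replicate 2. The gene shares exon bases with Emc8 on the opposite strand in GENCODE M21. The same holds for 22 members and a tested gene on the opposite strand, and the sources used here do not say whether the authors' counting used strand.

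Several complex IV subunits exist as a common form and a form known from muscle, lung or testis. The HT-22 libraries held mostly the common forms. The muscle form Cox6a2 had 5.03 and 17.9 normalised reads in wild type, against 9 and 10.2 with overexpression, next to 5143 and 5713 against 4968 and 5148 for Cox6a1 (log2 fold change -0.10). The 3 members below the filter were the tissue forms Cox4i2 and Cox7a1, and Ndufa4l2, which is set here beside Ndufa4 by its symbol. Cox4i2 had 2 reads in wild type replicate 1 and 0 in the other libraries. Cox7a1 had 6, 2, 0 and 9 reads and Ndufa4l2 0, 5, 10 and 5, in the order wild type 1 and 2 and overexpression 1 and 2. Per kb of transcript the means of the 4 libraries were 15.5 normalised reads for Cox6a2, 0.861 for Cox4i2, 10.3 for Cox7a1 and 5.06 for Ndufa4l2, against 9182 for Cox6a1, 13419 for Cox4i1, 3905 for Cox7a2 and 4950 for Ndufa4. Cox7a2 stood at 2726 and 2243 against 2686 and 2638 normalised reads (log2 fold change 0.11), and Ndufa4, once assigned to complex I and now to complex IV, at 2600 and 2611 against 2455 and 2848 (0.02). Cox7a2l, a factor that joins complexes III and IV into supercomplexes, stood at 5375 and 5385 against 5709 and 5089 (0.00). Cox6b1 stood at 3839 and 4642 against 4283 and 4032 (-0.02) and Cox8a at 5237 and 5971 against 5200 and 5778 (-0.03). Groups overlapped for Cox7a2, Ndufa4, Cox7a2l, Cox6b1 and Cox8a. Cox6b2, Cox8b and Cox8c were not analysed here. Cox7b2, a form described mainly in testis, was present at a moderate level, with 438 and 489 normalised reads in wild type, against 437 and 481 with overexpression (log2 fold change -0.01).

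**Figure D2:**
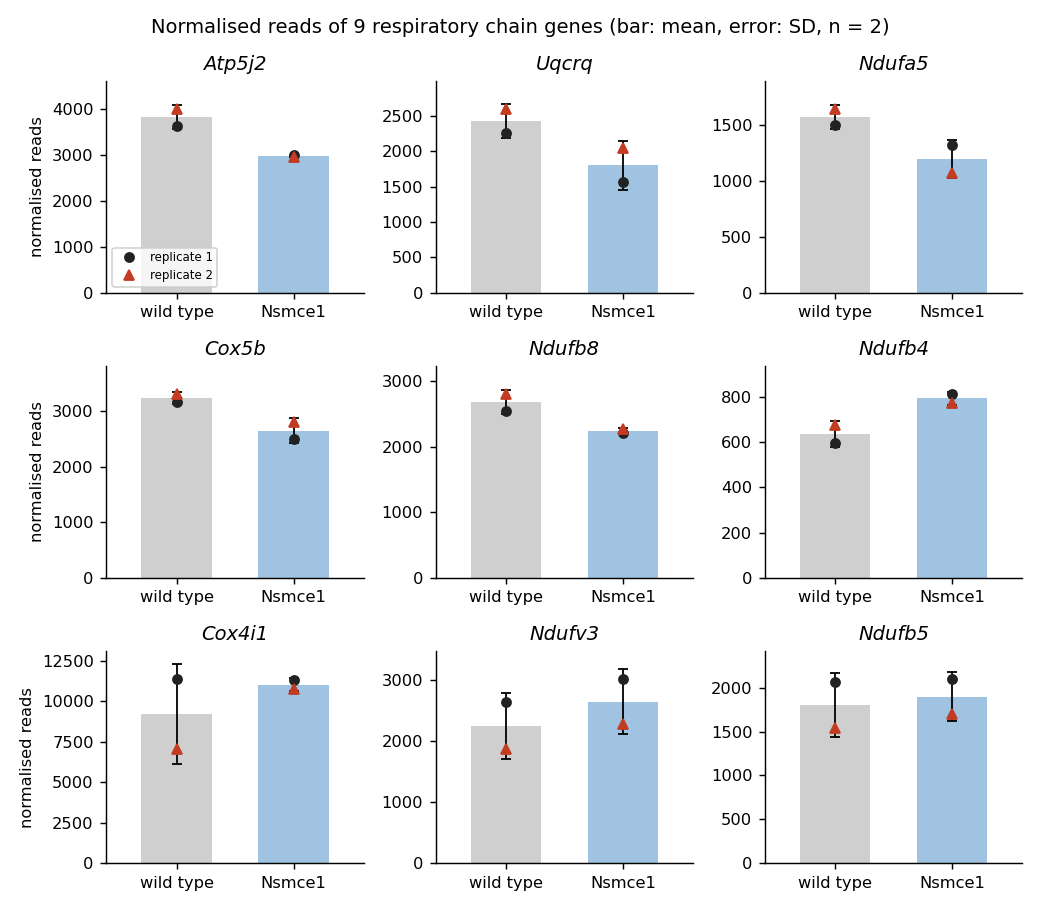
Normalised reads of 9 members in each library, with bars at the group mean and error bars of 1 SD (n = 2), points for replicate 1 and triangles for replicate 2. Atp5j2, Uqcrq, Ndufa5, Cox5b and Ndufb8 lie lower and Ndufb4 higher in both overexpressing libraries, whereas in Cox4i1, Ndufv3 and Ndufb5 the replicates of a group differ by as much as the groups or more.

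ATP synthase had 8 of its 16 members below 0 and 8 above and a median log2 fold change of 0.00. With the chromosome medians described further on removed, 10 were below 0 and 6 above, and the median was -0.08. Its median was -0.05 without wild type replicate 1 and 0.01 without wild type replicate 2. Of the 5 subunits of the F1 head and central stalk, which make ATP, 4 were above 0, or 2 with chromosome medians removed, and their groups overlapped in every case. Atp5b, the catalytic beta subunit and the member with the highest mean, stood at 34763 and 37611 normalised reads in wild type, against 36229 and 39814 with overexpression (log2 fold change 0.07, interval -0.13 to 0.28, limma adjusted p = 0.863). Its partner Atp5a1 stood at 21906 and 23881 against 20262 and 22200 (log2 fold change -0.11). The central stalk gamma subunit gene Atp5c1 stood at 5445 and 5828 against 6205 and 5607 (0.07), and the epsilon subunit gene Atp5e at 855 and 1033 against 1016 and 1013 (0.11). The peripheral stalk, which holds the head still, had a median of -0.04 over 4 members. Atp5f1, its b subunit, stood at 7096 and 7651 against 6972 and 6998 (-0.08), with no overlap, and Atp5h, its d subunit, at 4459 and 4640 against 4700 and 4345 (-0.01).

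The member with the smallest p of all lies in the membrane part of the enzyme. Atp5j2 (ENSMUSG00000038690, chromosome 5), the f subunit, stood at 3630 and 3998 normalised reads in wild type, against 2989 and 2954 with overexpression. The overexpressing values were close to each other and below both wild type values, by 22.1% on the means (log2 fold change -0.36, SE 0.0839, interval -0.56 to -0.15, limma adjusted p = 0.331). The log2 fold change ran from -0.43 to -0.29 with each library left out in turn. Atp5k, the e subunit beside it, stood at 2207 and 2306 against 1987 and 1998 (log2 fold change -0.18, limma adjusted p = 0.659). Atp5l, the g subunit of the same region, stood at 2297 and 2612 against 2472 and 2505 (log2 fold change 0.02), so that its groups overlapped. Atp5s, an associated factor of low abundance, was higher in both overexpressing libraries, at 180 and 177 against 137 and 140 (log2 fold change 0.36, interval -0.04 to 0.76, limma adjusted p = 0.659).

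The c ring, the rotor through which protons pass, is made of 1 mature protein encoded by Atp5g1, Atp5g2 and Atp5g3, whose precursors differ in their mitochondrial import sequences. The last 90 coding bases of each, ending with the stop codon, are shown because the similarity of the 3 genes bears on how reads can be assigned to them. They come from GENCODE M21 and run 5′ to 3′. Capitals mark, in Atp5g1, a base that differs in at least 1 other gene and, in Atp5g2 and Atp5g3, a base that differs from Atp5g1.
Atp5g1: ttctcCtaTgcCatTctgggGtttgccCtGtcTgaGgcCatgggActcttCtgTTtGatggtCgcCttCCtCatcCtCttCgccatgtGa
Atp5g2: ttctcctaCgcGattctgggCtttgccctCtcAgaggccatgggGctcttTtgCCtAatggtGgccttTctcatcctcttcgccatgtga
Atp5g3: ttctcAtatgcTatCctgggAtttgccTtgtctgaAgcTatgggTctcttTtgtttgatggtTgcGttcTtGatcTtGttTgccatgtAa
Over the last 228 coding bases Atp5g1 and Atp5g2 shared 85.1%, with 34 differences, 32 of them at the third codon position, and a longest identical run of 21 bases. Atp5g1 and Atp5g3 shared 79.8% and Atp5g2 and Atp5g3 78.5%. The sources used here do not say how the authors' counting treated reads that align to more than 1 place, so the values of these genes are less certain where reads fall in the shared stretch. Atp5g1 stood at 1558 and 1966 normalised reads in wild type, against 1437 and 1723 with overexpression (log2 fold change -0.15, limma adjusted p = 0.830). Atp5g2 stood at 3511 and 3256 against 3619 and 3211 (0.01, limma adjusted p = 0.988) and Atp5g3 at 6093 and 6845 against 5760 and 6352 (-0.09, limma adjusted p = 0.834). The groups overlapped for all 3.

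Levels between genes were compared as normalised reads per kb of transcript, averaged over the 4 libraries. The median was 1628 in complex I, 2471 in complex II, 3358 in complex III, 4979 in complex IV and 4950 in complex V, leaving out Cox6a2, Cox7b2 and Atp5s. Atp5b was highest at 19365, followed by Cox4i1 at 13419 and Uqcrh at 10653. Among structural subunits Ndufb2 was lowest at 276 and Atp5g1 next at 625, but both depend on the length assumed. The principal transcripts of Ndufb2 run from 455 to 4371 bases and those of Atp5g1 from 596 to 4715, and with the shortest length the values would be 1465 and 2804. Within the c subunit genes Atp5g3 was at 8716 and Atp5g2 at 5801. The tissue form Cox6a2 stood at 15.5 and Cox7b2 at 851, and Atp5s at 103.

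**Figure D3:**
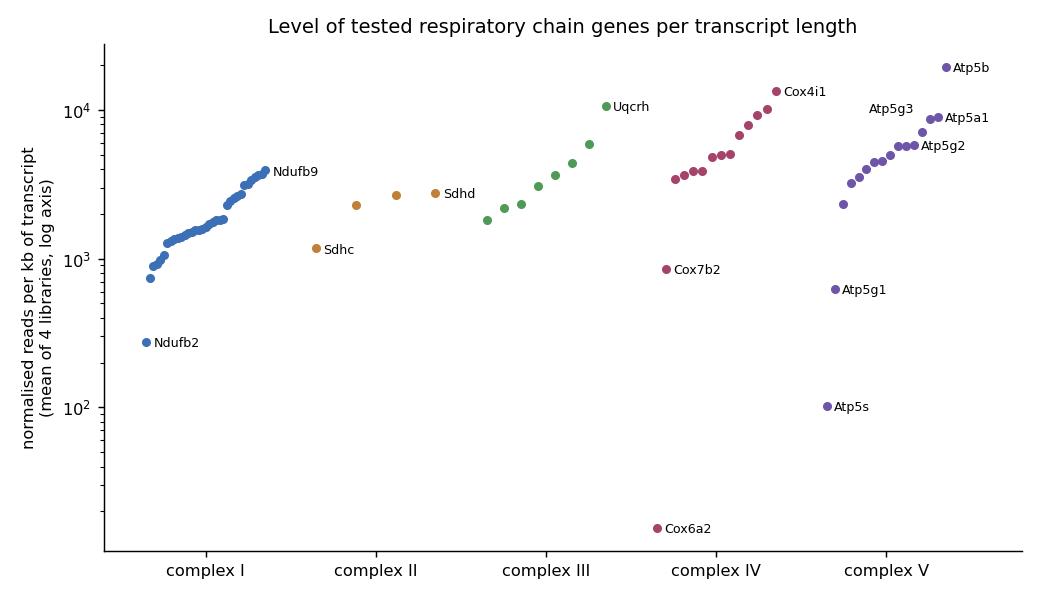
Mean level of each tested member over the 4 libraries, in normalised reads per kb of transcript on a log axis, ordered within each complex. Complex IV and complex V subunits lie mostly above those of complex I (medians 4979, 4950 and 1628), and the tissue form Cox6a2 lies far below the rest.

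The libraries of a group differed among themselves. The median absolute log2 difference over the members was 0.14 between the wild type libraries and 0.10 between the overexpressing ones, and 0.08 between the group means, where all tested genes had 0.15, 0.15 and 0.12. A difference of means of 2 libraries is expected to be smaller than a difference of single libraries when nothing changes. In 62 of 78 members the fold change was smaller than the larger of the differences within a group (79.5%, against 73.9% of all tested genes). Both overexpressing values lay below both wild type values in 21 members (26.9%, against 18.3% of all tested genes). They lay above in 4, Ndufa3, Ndufb4, Atp5s and Atp5j (5.13%, against 20.8%), and the groups overlapped in 53.

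Wild type replicate 2 stood apart for these genes. It was above wild type replicate 1 in 67 of 78 members (85.9%), where it was above in 50.7% of all tested genes. It was the highest of the 4 libraries in 52 members (66.7%), against 26.0% of all genes. Set against each gene's mean of the 4 libraries, the median member was at -0.01 in wild type replicate 1, 0.09 in wild type replicate 2, -0.05 in overexpression replicate 1 and -0.01 in overexpression replicate 2 on the log2 scale. Without wild type replicate 2 the median log2 fold change was -0.01 with 40 members below 0, and without wild type replicate 1 it was -0.09 with 61 below 0. The members' median was thus nearest to 0 when this library was left out. Other large gene groups were also higher in wild type replicate 2 than in replicate 1: 64 of 78 mitochondrial ribosomal protein genes, 71 of 76 cytosolic ribosomal protein genes, 33 of 37 proteasome genes and 13 of 14 tricarboxylic acid cycle genes. Of the mitochondrially encoded subunits it was 8 of 13. Between the overexpressing libraries, replicate 2 was the higher in 63, 18, 33, 10 and 9 genes of these groups, in the same order. Among members it was the higher in 49 of 78, against 7827 of 15540 tested genes. Of the tested fibroblast and mesenchymal markers, 0 of 9 were higher in replicate 2 in either group. Their sums were 483694 in wild type replicate 1 and 417267 in replicate 2, against 455136 and 394661 with overexpression. The part of these differences in the members' values was not tested.

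**Figure D4:**
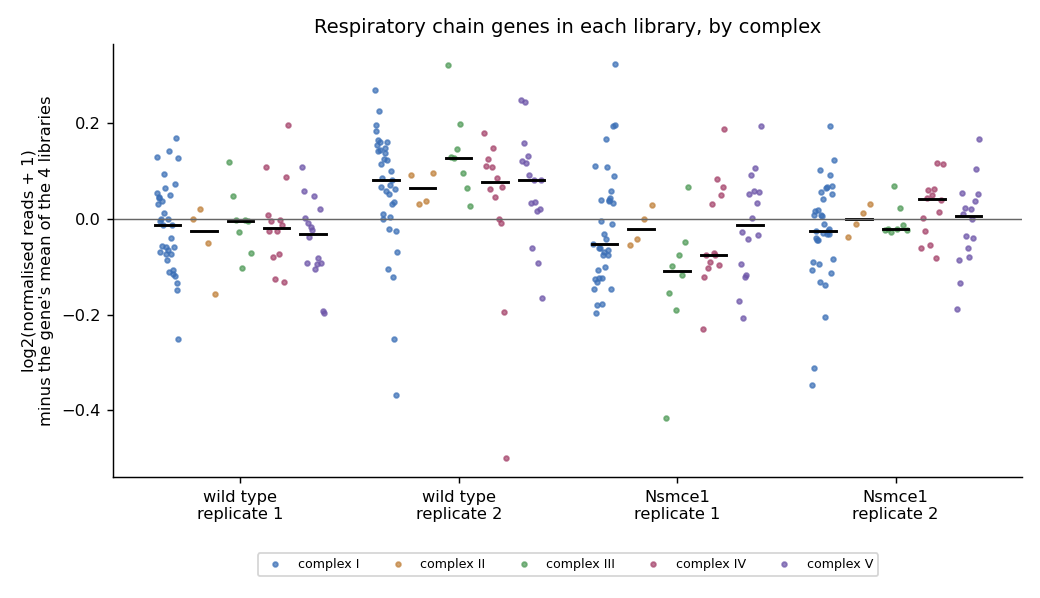
Log2(normalised reads + 1) of each tested member minus its mean of the 4 libraries, by library and complex, with bars at the median of each complex. Cox6a2 and Atp5sl are left out. Wild type replicate 2 has the highest median in each complex, with a median of 0.09 over the members, and the points of the other libraries scatter on both sides of 0.

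A smaller set ran against that order. In 8 members both replicate 1 libraries were above both replicate 2 libraries (10.3%, against 16.7% of all genes), namely Atp5g2, Cox4i1, Cox7a2, Ndufa6, Ndufb10, Ndufb5, Ndufv2 and Ndufv3. Ndufv3, an accessory subunit of the NADH-binding module, stood at 2634 and 1868 in wild type, against 3020 and 2275 with overexpression (log2 fold change 0.24, interval -0.25 to 0.73, limma adjusted p = 0.800). Ndufb5 stood at 2069 and 1545 against 2105 and 1702, and Ndufb10 at 2544 and 2145 against 2590 and 2002. The reverse order, both replicate 2 libraries above both replicate 1 libraries, was found in 29 members (37.2%, against 18.5%).

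The summed normalised reads of all 81 members were 265772 and 280239 in wild type, against 264615 and 270446 with overexpression, 0.814% to 0.858% of the reads of a library. The ratio of the means was 0.980, and an exact two-sided permutation test over the libraries gave p = 0.667, where 0.333 is the smallest p that 2 against 2 allows. Without wild type replicate 2 the ratio was 1.01, on the other side of 1, and without wild type replicate 1 it was 0.955. By complex the ratio was 0.967 for complex I, 0.971 for II, 0.934 for III, 1.01 for IV and 0.984 for V. The exact permutation p was 0.333 for complex I, whose overexpressing sums were both the lower ones, and between 0.667 and 1 for the others.

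Members on chromosomes 10 and 16 were viewed beside their neighbours, because the genes of these chromosomes were shifted as a whole. The median log2 fold change was 0.14 over 752 genes of chromosome 10 and 0.17 over 448 genes of chromosome 16. Apart from Ndufb4, the tested members there lay below these medians. On chromosome 10, Atp5b was at 0.07, Atp5d at 0.06, Ndufs7 at 0.08, Ndufa12 at -0.01 and Uqcr11 at -0.18, and on chromosome 16, Atp5j was at 0.07 and Atp5o at -0.16. With the chromosome's median taken off the overexpressing libraries the values were -0.07, -0.08, -0.06, -0.15, -0.32, -0.10 and -0.33, in the same order. Atp5o, the oscp subunit of the peripheral stalk, stood at 4771 and 5319 normalised reads in wild type, against 4677 and 4340 with overexpression. Atp5d, the delta subunit of the central stalk, stood at 4367 and 4779 against 4852 and 4659. Ndufs7, a core subunit beside the quinone site, stood at 1095 and 1220 against 1181 and 1268, and the accessory subunit Ndufa12 at 1366 and 1455 against 1332 and 1469. Atp5j, the F6 subunit of the stalk, stood at 2413 and 2231 against 2433 and 2440. Ndufa4l2, also on chromosome 10, was not tested.

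Genes that build, regulate or accompany the chain were read from the same fit, and 0 of the 301 tested genes of the 13 lists passed by limma or by voom. At an unadjusted limma p under 0.05 there were 16, 7 higher and 9 lower (5.32%, against 7.92% of all genes). Complex I assembly factors had 6 genes above 0 and 9 below (median -0.04). Timmdc1, a membrane arm factor on chromosome 16, stood at 482 and 375 normalised reads in wild type, against 527 and 594 with overexpression (log2 fold change 0.40, limma adjusted p = 0.624). Ndufaf4, an early assembly factor, stood at 454 and 510 against 400 and 147, so its log2 fold change of -0.98 rests on overexpression replicate 2 (limma adjusted p = 0.652). Complex IV assembly factors had 8 above and 13 below (median -0.08). Among them Coa7, a heme-binding assembly factor, stood at 283 and 275 against 429 and 634 (log2 fold change 0.90, limma adjusted p = 0.297), and both of its overexpressing values were above both wild type values. Cox10, which makes heme O, stood at 663 and 731 against 493 and 610 (log2 fold change -0.34, limma adjusted p = 0.628).

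The smaller lists had median log2 fold changes of -0.001 for complex II factors, -0.07 for complex III factors and -0.10 for the ATP synthase list. Complex II factors had 2 genes above 0 and 2 below, led by Sdhaf1 (log2 fold change -0.26) and Sdhaf3 (0.06). Complex III factors had 1 above and 5 below, led by Bcs1l (-0.22) and Lyrm7 (-0.79 at 8 to 27.4 normalised reads). The ATP synthase list had 1 above and 5 below, led by Atpaf1 (0.18) and Usmg5 (-0.17). That list mixes assembly factors and the inhibitor with small ATP synthase subunits that the symbol rule did not take, Usmg5 among them. Other subunits and carriers that the symbol rule did not take had log2 fold changes of 0.13 for Ndufab1, the mitochondrial acyl carrier protein, -0.05 for the cytochrome c gene Cycs and -0.04 for Cyc1.

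The 13 subunits encoded by mitochondrial DNA had 3 genes above 0 and 10 below, and a median log2 fold change of -0.02. The gene mt-Atp6, the a subunit of ATP synthase, stood at 25721 in wild type replicate 1 and 81431 in replicate 2, against 108537 and 109287 in the overexpressing libraries (log2 fold change 1.25, limma adjusted p = 0.598). Wild type replicate 1 was far below the other 3 libraries for this gene. The gene mt-Co3 stood at 113711 and 115010 against 111005 and 106524 (-0.07, limma adjusted p = 0.835).

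Among 13 tested transcription factors and coactivators of respiratory genes, 8 were above 0 and 5 below. Ppargc1a, a coactivator of mitochondrial biogenesis, stood at 368 and 366 in wild type, against 252 and 307 with overexpression (log2 fold change -0.40, limma adjusted p = 0.588). Myc stood at 895 and 995 against 800 and 666 (-0.37, limma adjusted p = 0.549). Tfam, which packages and transcribes mitochondrial DNA and lies on chromosome 10, stood at 1450 and 1435 against 1637 and 1807 (0.25, limma adjusted p = 0.563), and Mgme1 of the same list was at -0.22. Groups did not overlap for Ppargc1a, Myc and Tfam. Of the 13 factors and coactivators, 4 were lower and 4 higher without overlap, where 18.3% and 20.8% of all tested genes were.

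Large housekeeping complexes gave a frame for the members. Mitochondrial ribosomal protein genes had 20 above 0 and 58 below (median -0.08), with Mrpl42, on chromosome 10 where the median gene was at 0.14, at 0.23 and Mrps18a at -0.38. Cytosolic ribosomal protein genes had 6 above and 70 below (median -0.13), with Rps27a at -0.31 and Rpl36a at -0.44. Proteasome genes had 8 above and 29 below (median -0.05), with Psmb10 at -0.50 and Psma6 at 0.19. Tricarboxylic acid cycle genes had 5 above and 9 below (median -0.02), with the citrate synthase gene Cs, also on chromosome 10, at 0.13 and Suclg2 at -0.30. The members' median of -0.05 lay within the range of these lists.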

How the data were processed

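RNA was sequenced from 4 HT-22 libraries. Trizol extraction, a TruSeq kit and the BGISEQ500 were used, per the labels' protocols. HISAT, Cufflinks and mm9 are named in the submitters' processing notes, with no versions. The deposited table holds log2 values, which the values themselves show to be log2(normalised reads + 1): undone, 100% were whole reads within 0.001, and a read was worth between 0.730 and 1.26 normalised reads, depending on the library. The sources used here do not give the authors' normalization step itself.

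All genes with a mean of at least 10 normalised reads (15540) were fitted with limma 3.58.1 in R 4.3.3, with a mean-variance trend and group as the only term, two-sided, with Benjamini-Hochberg adjustment over all of them and a threshold of 0.05. The scale of fold changes is log2(value + 1). The steps were tested on simulated counts whose spread was set by abundance alone. That test does not show which changes could be detected in these libraries. Chromosomes, lengths, coding sequences and overlaps came from GENCODE M21 (GRCm38) by Ensembl identifier, for 81 of 81 members, with the median of the principal transcripts as length.

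Members and gene lists were chosen with earlier results of these data known. Named genes were members past the threshold, the 3 smallest p in each complex, the Sdh genes, tissue isoforms, c subunit genes, members on chromosomes 10 and 16, those with the highest and lowest mean, and the 2 smallest p in each list. Other members were named after their values were seen. The values of 1 member are not reported here. Replicates of both groups differed beyond counting noise (mean chi-square over genes 18.1 and 25.7). Alternatives were 2 pseudocounts, 2 filters, 3 scalings, limma without trend and robust, voom, a replicate block, chromosome medians removed and each library left out.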

Additional observations from a re-analysis of the deposited data

How the results depend on the processing

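Across the 16 alternatives run, 0 members passed the threshold, the smallest adjusted p being 0.153 under the replicate block. Over 32 named members, 511 values were recomputed: 0 passed, and 27 changed sign, in 16 members, all of them uncalled. The number of all genes called depended on the setting: 16 without a filter, 18 with quantile normalization, 9 for limma without trend, 72 with robust variances, 60 with the replicate block, and 2 to 75 with each library left out. Deviations of same-numbered libraries from their group means correlated across all tested genes with r = 0.0068. That value does not describe every gene set. Both replicate 2 libraries were above both replicate 1 libraries in 37.2% of members, against 18.5% of all genes. Whether same-numbered libraries share more than a number was not tested. Leaving out each library moved the members' median from -0.09 to -0.01 and complex III's from -0.198 to -0.0395, while complex V's was -0.0804 with chromosome medians removed. Genes of the pathway lists past the threshold ranged from 0 to 1: mt-Atp6 (log2 fold change 2.08, limma adjusted p = 0.0311) without wild type replicate 2, Ndufaf4 (-1.70, limma adjusted p = 0.0431) without overexpression replicate 1 and Mrps21 (-0.98, limma adjusted p = 0.0459) without overexpression replicate 2, named after their values were seen. With a library left out, the remaining one of its group is assumed to vary like the others. The edgeR and DESeq2 alternatives were not run, and voom was the fit made on the recovered reads. Cox4i2, Cox7a1 and Ndufa4l2 were too low to be tested, and the interval of Cox6a2, from -1.72 to 1.70, bounds its difference only loosely.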
